A study of Mus musculus with 16 samples.

Results

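The genes described here encode parts of the axoneme, the microtubule shaft of motile cilia and sperm flagella, together with Foxj1, the transcription factor of motile cilium formation. They were chosen by name: protein-coding genes whose symbol begins with Dnah, Dnai, Drc, Rsph, Cfap or Tekt followed by a digit, plus Foxj1. The rule found 60 of the 24454 genes in the count table. The match by symbol used no measured value, but the rule was chosen with earlier results of these data known. Those results had already set the libraries Sham_Veh4 and Sham_SHU3 apart by high RNA of the sperm gene Prm1. The rule holds 5 outer arm and 7 inner arm dynein heavy chains, 3 genes of the nexin-dynein regulatory complex, 7 radial spoke genes, 5 tektins, 32 genes of the Cfap series (cilia and flagella associated proteins) and Foxj1. Cfap54, Cfap99, Dnah12, Dnah14 and Dnah3 also carry such symbols but were not found in the count table, so they could not be analysed. The 15 members whose gene bodies overlap another gene of the table include Dnah11, Dnah17, Rsph1, Rsph9 and Cfap36. The strand setting of the counting is not known, so reads of overlapping genes cannot be told apart. Dnah7a, Dnah7b and Dnah7c, and likewise Rsph3a and Rsph3b, are near-identical copies whose counts may be split between them.

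PolyA RNA of gonadal fat was sequenced from lean male C57BL/6J mice, 16 weeks old and fed chow, in 4 groups of 4 libraries. Sham_Veh mice had sham surgery and vehicle, Sham_SHU mice sham surgery and SHU9119, VX_Veh mice subdiaphragmatic vagotomy (sDVX, cutting of the vagus nerve below the diaphragm) and vehicle, and VX_SHU mice sDVX and SHU9119. SHU9119, a peptide blocker of brain melanocortin receptors, or vehicle was infused into the cerebral ventricles by minipump for 2 weeks, at 1 nmol per day for the peptide, starting 4 weeks after surgery, with food intake matched in calories. The series asks whether brain melanocortin signalling acts on fat through the vagus nerve apart from energy intake. The labels give no genotype beyond the strain. The labels do not tie each library to its own mouse, and p-values here reflect only how far libraries differ, which may be technical.

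A motile cilium beats because dynein arms on its microtubule doublets walk along the neighbouring doublet. Outer arms set the power and frequency of the beat, inner arms its shape, and the nexin-dynein regulatory complex and the radial spokes coordinate the arms. Sperm flagella share this plan but use their own paralogs for several subunits. Adipocytes carry at most a non-motile primary cilium, whereas tissues next to or continuous with gonadal fat in males include testis, epididymis and efferent ducts, of which testis makes flagella and efferent ducts carry motile cilia.

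Genes of motile cilia often carry an X-box in their promoter, the site of RFX transcription factors, and Foxj1 binds a forkhead site, so both motifs were searched in the windows from 250 bases before to 50 bases after annotated transcript starts. RefSeq windows (GRCm38.p6) were matched for 51 of the 60 members. In 43 of these a window's start lay within 1 kb of the 5′ end of the gene in the gene table, and in 8, Dnah5 among them, every start lay further inside the gene. The X-box arm GTTGCC, read on both strands, lay in the windows of 20 of the 51 member genes (39.2%) and of 3821 of all 27025 genes in the promoter table (14.1%). The full palindromic box, GTTNCC followed after 2 bases by GGNAAC (arms that can coincide with GTTGCC), lay in 2 member genes (3.92%), Cfap298 and Cfap20dc, and in 143 of all genes (0.529%). The forkhead core TGTTTA, also read on both strands, lay in 10 member genes (19.6%) and in 15.1% of all genes. A match to these letters is a description and not a shown binding site. The windows of Cfap298 and Cfap20dc are printed for their full box. That of Tekt1 is printed for GTTGCC on both strands, but it holds no full box, since the arms stand in the opposite order. Those of Dnah11 and Dnah8 are printed because these paralogs had opposite library patterns (described next) while each window held a forkhead core and no GTTGCC. Capitals mark GTTGCC or its reverse complement, or TGTTTA or its reverse complement. The Cfap298 window is chr16:90934800-90935099 on the minus strand, that of Cfap20dc chr14:8666241-8666540 on the minus strand, that of Tekt1 chr11:72361833-72362132 on the minus strand, that of Dnah11 chr12:118198994-118199293 on the minus strand and that of Dnah8 chr17:30626686-30626985 on the plus strand.
Cfap298: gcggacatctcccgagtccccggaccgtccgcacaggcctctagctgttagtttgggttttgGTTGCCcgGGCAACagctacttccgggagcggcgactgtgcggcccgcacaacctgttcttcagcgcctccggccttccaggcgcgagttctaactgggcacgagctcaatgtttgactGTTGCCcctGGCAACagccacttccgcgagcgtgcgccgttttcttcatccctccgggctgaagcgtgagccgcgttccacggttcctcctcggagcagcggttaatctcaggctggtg
Cfap20dc: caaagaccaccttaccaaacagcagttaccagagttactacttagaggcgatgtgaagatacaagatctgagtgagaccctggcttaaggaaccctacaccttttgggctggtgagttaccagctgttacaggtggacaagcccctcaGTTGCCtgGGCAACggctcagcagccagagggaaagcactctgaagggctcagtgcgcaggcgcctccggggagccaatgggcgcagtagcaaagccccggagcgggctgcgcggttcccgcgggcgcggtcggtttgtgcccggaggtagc
Tekt1: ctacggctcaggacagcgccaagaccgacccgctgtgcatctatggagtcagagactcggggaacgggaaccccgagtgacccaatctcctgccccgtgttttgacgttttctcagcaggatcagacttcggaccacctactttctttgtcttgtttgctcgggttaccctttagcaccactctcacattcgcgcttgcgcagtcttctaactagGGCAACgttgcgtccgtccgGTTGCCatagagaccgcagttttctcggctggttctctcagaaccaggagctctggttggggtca
Dnah11: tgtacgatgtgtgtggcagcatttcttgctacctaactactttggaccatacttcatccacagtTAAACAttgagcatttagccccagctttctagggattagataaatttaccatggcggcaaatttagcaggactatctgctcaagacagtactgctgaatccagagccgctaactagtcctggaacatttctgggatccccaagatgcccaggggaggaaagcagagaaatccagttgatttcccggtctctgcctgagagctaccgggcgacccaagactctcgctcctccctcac
Dnah8: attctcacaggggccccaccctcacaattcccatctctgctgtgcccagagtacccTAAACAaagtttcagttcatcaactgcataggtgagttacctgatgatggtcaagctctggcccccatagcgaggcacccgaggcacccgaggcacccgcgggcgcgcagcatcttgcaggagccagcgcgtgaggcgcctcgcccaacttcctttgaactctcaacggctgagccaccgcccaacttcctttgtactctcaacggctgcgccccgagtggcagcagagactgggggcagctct

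Library totals ran from 20425295 to 30889052 counts. Adipoq, the adipocyte hormone adiponectin, stood at 1205 to 3957 CPM (counts scaled to the TMM-adjusted library size) in the 16 libraries, so the labelled tissue was present in each. Markers of other tissues varied far more. The summed level of 11 ciliated epithelium markers ran from 40.4 to 1025 CPM, highest in VX_Veh1. The sum of 14 testis and sperm markers was 3204 CPM in Sham_Veh4 and 1559 CPM in Sham_SHU3, against 64.1 to 400.0 CPM in the other libraries. The sum of 12 epididymis markers was 11490 CPM in VX_SHU4 and 11190 CPM in VX_Veh4, 607.7 to 3707 CPM in Sham_SHU4, Sham_SHU3, Sham_Veh3 and Sham_Veh4, and 8.49 to 73.0 CPM in the others. In bulk tissue, fewer cells of a type and less RNA per cell cannot be told apart.

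The members were not evenly spread over the libraries. All 60 together summed to 1068, 1034, 190.5 and 1476 CPM in Sham_Veh1 to Sham_Veh4, to 191.5, 230.1, 778.8 and 235.9 CPM in the Sham_SHU libraries, to 2585, 781.5, 747.3 and 215.3 CPM in the VX_Veh libraries and to 210.0, 564.6, 173.7 and 230.4 CPM in the VX_SHU libraries. In every group the highest library was several times the lowest, and the groups overlapped. Of the 60 members, 40 were highest in VX_Veh1 and 16 in Sham_Veh4, and 50 stood at least 5 times higher in their highest library than in their median library.

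**Figure D1:**
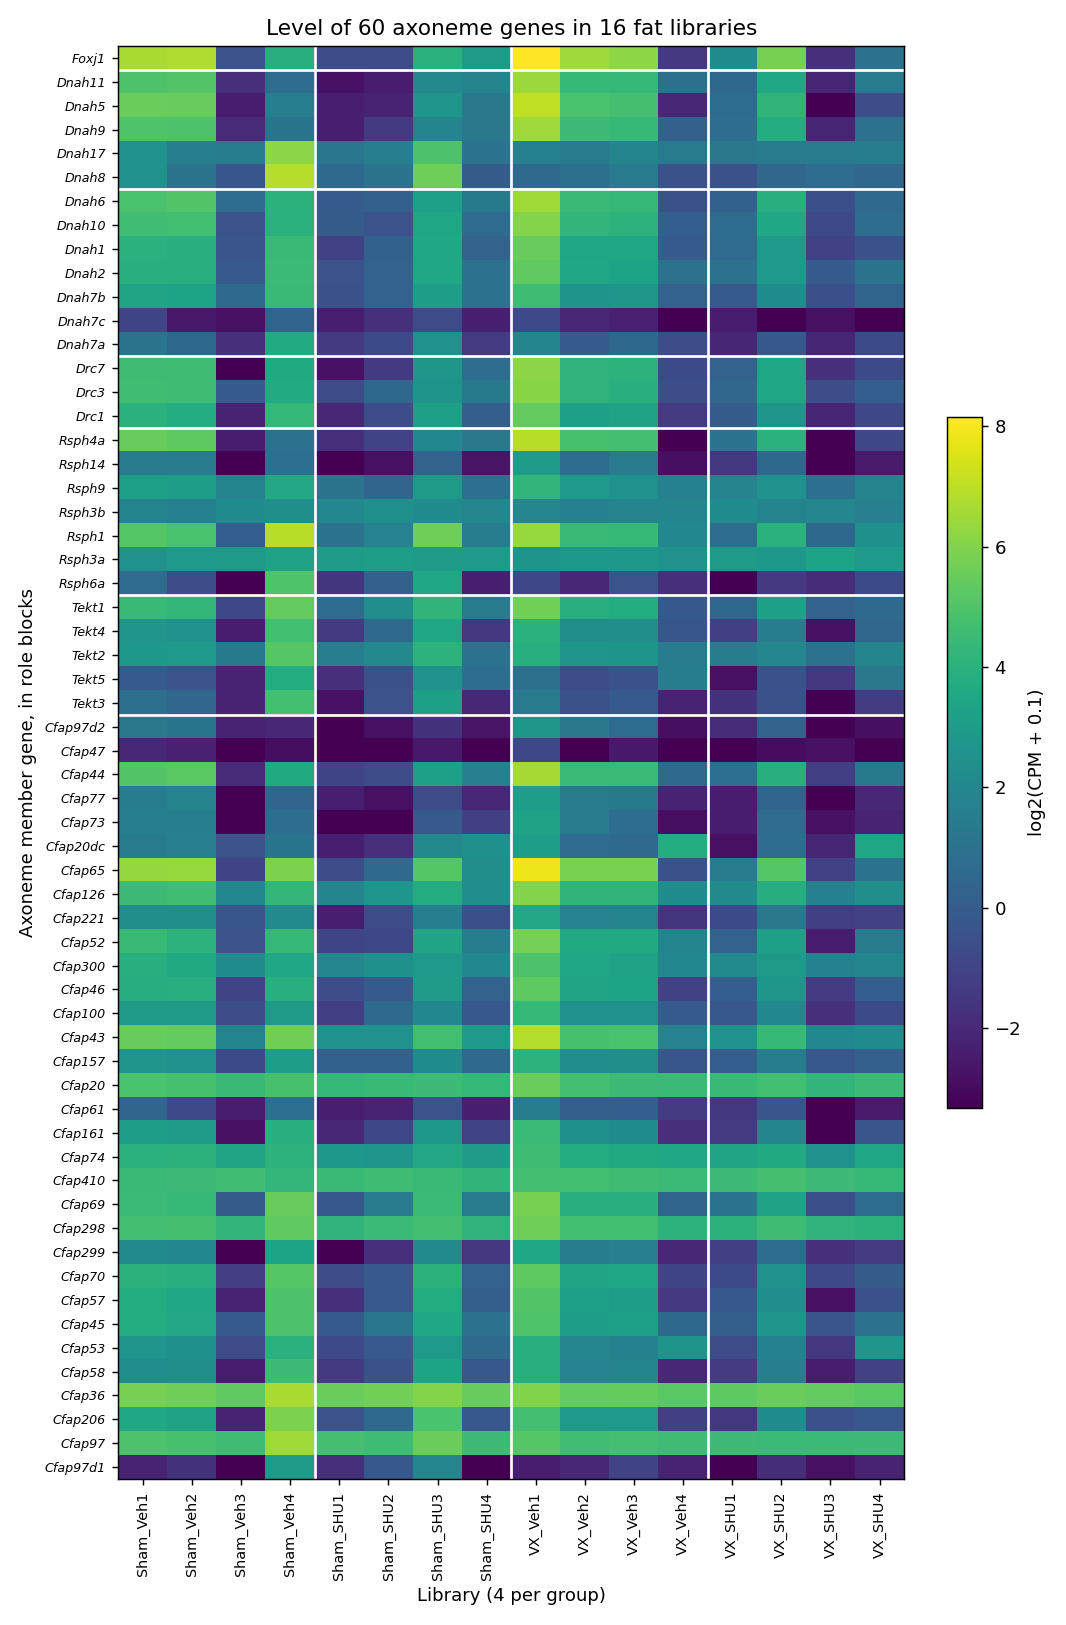
Level of each axoneme gene (rows, grouped by role) in each of the 16 libraries (columns, grouped by surgery and infusion), as log2 (CPM + 0.1) on the colour scale. Most genes are highest in VX_Veh1, with 40 of 60 at their maximum there, and a block of 16 is highest in Sham_Veh4.

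Foxj1 (gene 15223, mm10 chromosome 11, 116330704 to 116335499), which switches on the programme of motile cilia, stood at 103.6, 110.3, 0.661 and 15.1 CPM in Sham_Veh1 to Sham_Veh4 and at 0.522, 0.535, 16.0 and 7.51 CPM in the Sham_SHU libraries. It stood at 283.9, 89.1, 72.4 and 0.269 CPM in the VX_Veh libraries and at 4.65, 55.3, 0.214 and 1.87 CPM in the VX_SHU libraries. Each vehicle group held 1 library below 1 CPM, and VX_SHU2 stood above every Sham_SHU library. Group means were 57.4 ± 57.6, 6.13 ± 7.33, 111.4 ± 121.3 and 15.5 ± 26.6 CPM (SD, n = 4) for Sham_Veh, Sham_SHU, VX_Veh and VX_SHU. The fitted log2 difference of SHU9119 from vehicle was −3.22 ± 1.80 (SE) in sham mice (adjusted p = 0.327) and −2.83 ± 1.75 after sDVX (adjusted p = 0.492) by edgeR's quasi-likelihood test. After sDVX it was −1.77 without VX_Veh1 and −5.64 without VX_SHU2. Averaged over both surgeries it was −3.02 ± 1.26 (adjusted p = 0.137). The difference of sDVX from sham was 0.96 under vehicle (adjusted p = 0.847) and 1.34 under SHU9119 (adjusted p = 0.769), and the interaction was 0.38 (adjusted p = 0.999). A two-sided exact permutation test on log2 (CPM + 0.5) gave p = 0.2 and 0.257 for SHU9119 in sham and in sDVX mice, 0.771 and 0.8 for sDVX under vehicle and under SHU9119, where 0.0286 is the smallest p possible with 70 assignments, and p = 0.0686 for SHU9119 averaged over the surgeries (4900 assignments). Adjusted over these 5 tests, the smallest of these exact permutation p-values was 0.343. No comparison of Foxj1 passed a threshold by these tests.

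**Figure D2:**
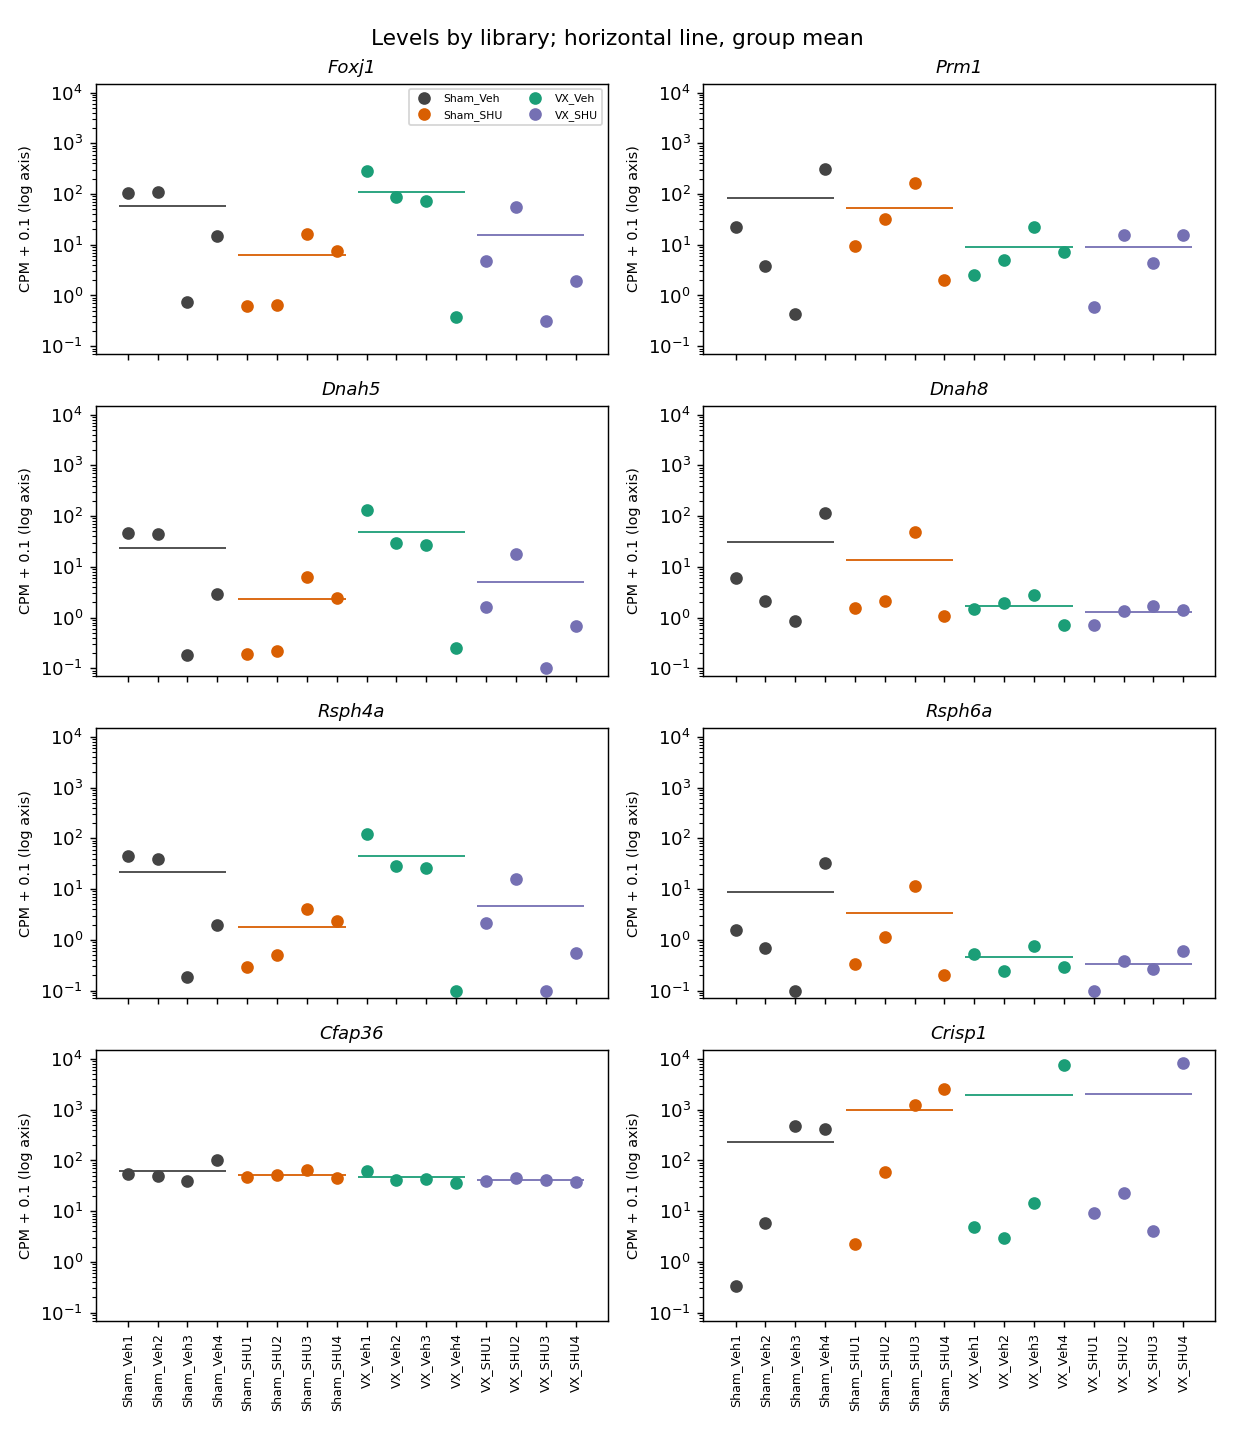
CPM + 0.1 (log axis) of Foxj1, 5 other members, and the sperm gene Prm1 and the epididymis gene Crisp1 in each library, with each point 1 library and each line a group mean. Foxj1 reaches 283.9 CPM in VX_Veh1 and lies under 1 CPM in 1 library of each vehicle group, while Dnah8 peaks at 116.8 CPM in Sham_Veh4.

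The outer arm heavy chains fell into 2 library patterns. Dnah5, the core outer arm motor of airway and other epithelial cilia (chromosome 15, 28154854 to 28472045), stood at 46.0, 45.1, 0.0826 and 2.87 CPM in the Sham_Veh libraries, 0.0949, 0.124, 6.33 and 2.32 CPM in the Sham_SHU libraries, 134.4, 30.0, 26.9 and 0.154 CPM in the VX_Veh libraries and 1.55, 17.8, 0 and 0.573 CPM in the VX_SHU libraries. The libraries high for Foxj1 were also high for Dnah5. The count of 0 in VX_SHU3 allows up to 0.128 CPM there (3 counts, counting error only). Dnah9 (chromosome 11, 65831324 to 66168581) and Dnah11 (chromosome 12, 117877982 to 118199043), its partners in the outer arms of cilia, were highest in VX_Veh1 at 88.4 and 85.1 CPM and stood at 2.08 and 1.69 CPM in Sham_Veh4. Dnah8, an outer arm motor of sperm flagella (chromosome 17, 30626935 to 30875762), stood at 5.88, 2.00, 0.743 and 116.8 CPM in the Sham_Veh libraries, 1.42, 2.06, 48.8 and 0.958 CPM in the Sham_SHU libraries, 1.39, 1.81, 2.65 and 0.615 CPM in the VX_Veh libraries and 0.620, 1.27, 1.62 and 1.30 CPM in the VX_SHU libraries. Sham_Veh4 and Sham_SHU3 stood far above the other 14 libraries, which reached at most 5.88 CPM. Dnah17, the other flagellar outer arm chain (chromosome 11, 118021723 to 118130719), stood at 70.9 CPM in Sham_Veh4 and 31.0 CPM in Sham_SHU3 and at 1.97 to 5.46 CPM elsewhere. Per kb of exon, Dnah5 stood at 8.59 CPM per kb and Dnah8 at 0.0519 CPM per kb in VX_Veh1, and at 0.184 and 4.36 CPM per kb in Sham_Veh4.

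Most inner arm chains and the 3 regulatory complex genes were highest in VX_Veh1 and also high in Sham_Veh4. Among the near-identical copies, Dnah7b followed this order, at 24.2 CPM in VX_Veh1 and 20.8 CPM in Sham_Veh4. Dnah7a stood at 3.66 and 12.9 CPM there, and Dnah7c at 0.479 and 1.19 CPM. Dnah6, an inner arm chain, stood at 90.0 CPM in VX_Veh1, 16.4 CPM in Sham_Veh4 and 8.83 CPM in Sham_SHU3, and Dnah10, part of the double-headed inner arm, at 64.7, 16.2 and 10.5 CPM. Both were at most 2.42 CPM in Sham_Veh3, Sham_SHU1, Sham_SHU2, Sham_SHU4, VX_Veh4, VX_SHU1, VX_SHU3 and VX_SHU4. Drc1, at the base of the nexin link, stood at 41.6 CPM in VX_Veh1, 20.0 CPM in Sham_Veh4 and 0.124 CPM in Sham_Veh3. Drc7, another component of the link, stood at 70.4 and 12.2 CPM in VX_Veh1 and Sham_Veh4 and had no count in Sham_Veh3, which allows up to 0.124 CPM.

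Radial spoke genes showed the same division as the outer arm chains. Rsph4a, a spoke head protein of cilia (chromosome 10, 33905111 to 33916021), stood at 44.4, 39.8, 0.0826 and 1.83 CPM in the Sham_Veh libraries, 0.190, 0.412, 3.94 and 2.22 CPM in the Sham_SHU libraries, 121.2, 28.1, 26.3 and 0 CPM in the VX_Veh libraries and 1.99, 15.9, 0 and 0.458 CPM in the VX_SHU libraries. Its flagellar paralog Rsph6a (chromosome 7, 19054678 to 19074447) stood at 32.1 CPM in Sham_Veh4 and 11.6 CPM in Sham_SHU3 and at 0 to 1.49 CPM elsewhere. Rsph1, a spoke head protein of both organelles, was high in both kinds of library, at 120.1 CPM in Sham_Veh4, 82.8 CPM in VX_Veh1 and 49.1 CPM in Sham_SHU3, and at 0.991 to 5.34 CPM in Sham_Veh3, Sham_SHU1, Sham_SHU2, Sham_SHU4, VX_Veh4, VX_SHU1, VX_SHU3 and VX_SHU4. The spoke stalk copies Rsph3a and Rsph3b stood apart, with 5.65 to 10.1 CPM and 3.09 to 5.27 CPM over all 16 libraries.

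Tektins are filaments inside the microtubule doublets. Tekt1 stood at 52.6 CPM in VX_Veh1 and 41.6 CPM in Sham_Veh4, and Tekt2 at 14.4 and 35.0 CPM. Tekt3, Tekt4 and Tekt5 were highest in Sham_Veh4, at 25.7, 25.3 and 13.4 CPM, and stood at 2.66, 16.0 and 1.78 CPM in VX_Veh1. Tekt5 was also at 2.73 CPM in VX_Veh4 and 2.21 CPM in VX_SHU4, the 2 libraries with the highest epididymis marker sums.

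The Cfap genes ranged from ciliary to evenly expressed. Cfap65, needed for the sperm flagellum, stood at 230.3 CPM in VX_Veh1, 59.3 CPM in Sham_Veh4 and 0.384 CPM in VX_SHU3. Cfap97d1, a gene needed for the sperm flagellum, stood at 8.08 CPM in Sham_Veh4 and 3.90 CPM in Sham_SHU3, and at 0 to 0.782 CPM in the others. Cfap206, a spoke base protein, stood at 58.6 CPM in Sham_Veh4, 29.6 CPM in Sham_SHU3 and 26.7 CPM in VX_Veh1, and Cfap126, a basal body and axoneme protein, at 19.1, 13.2 and 64.5 CPM. Cfap97 stood at 92.7 CPM in Sham_Veh4 and 47.6 CPM in Sham_SHU3 and at 22.6 to 35.2 CPM in the others. Cfap47 had 0 to 0.435 CPM and was not tested. Cfap65, Cfap206, Cfap126, Cfap97 and Cfap47 were picked after their values were seen. Cfap36 ran from 36.6 to 104.1 CPM and Cfap298, a dynein assembly factor, from 16.4 to 48.9 CPM, with a floor in every library. Cfap410, a protein of the primary cilium base and of DNA repair, ran from 18.1 to 26.8 CPM, with its highest library 1.16 times its median library. For 3 members (Cfap410, Rsph3a and Rsph3b) the highest library was less than 2 times the median library, so the axoneme label did not mark a motile cilium pattern for them. For 7 more the highest library was 2 to 5 times the median library.

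Sham_Veh4 and Sham_SHU3, the libraries with the most protamine RNA (Prm1, a sperm chromatin protein, 311.6 and 164.5 CPM), and VX_Veh1, with the most Foxj1, were compared directly for the 57 members with at least 10 counts in each. Of these, 17 were higher in Sham_Veh4 than in VX_Veh1 and 5 were below 0.1 of VX_Veh1 (Foxj1, Dnah5, Dnah9, Dnah11 and Rsph4a). The ratio of Sham_Veh4 to VX_Veh1 was 83.9 for Dnah8, 73.9 for Rsph6a and 22.0 for Dnah17, against 0.0214 for Dnah5 and 0.0151 for Rsph4a. From Sham_Veh4 to Sham_SHU3, Prm1 stood at a ratio of 0.528, and the exact 95% binomial interval of the ratio (counting error only, since no molecular identifiers are described) lay below 1 in 48 of the 57 members. It lay above 1 in 5 members, Dnah5 (2.20, 1.68 to 2.91), Dnah9 (1.73, 1.24 to 2.44), Dnah11 (2.44, 1.72 to 3.51), Rsph4a (2.15, 1.53 to 3.06) and Cfap20dc (1.93, 1.39 to 2.69), and across 1 in 4, Foxj1 among them (1.06, 0.923 to 1.21). Dnah8 stood at 0.418 (0.391 to 0.445) and Rsph6a at 0.361 (0.316 to 0.410). The share of all genes with an interval off 1 is not given here, so the counts of members do not set them apart from other genes. Sham_Veh4 and Sham_SHU3 were known beforehand for high Prm1, and Dnah8, Dnah17 and Rsph6a met a naming rule for a high level there. The height of these genes there is thus no separate result. Between these libraries, which have no replicate of their own, the sperm paralogs stood lower where protamine RNA was lower, and so did most members. These included members highest in VX_Veh1, such as Dnah6 (0.538), Dnah10 (0.650) and Drc7 (0.541). Dnah5, Dnah9, Dnah11 and Rsph4a, 4 genes of epithelial cilia, stood higher. Of the 11 ciliated epithelium markers, Sntn, named after its value was seen, stood at a ratio of 2.05 and the member Foxj1 at 1.06. The sum of the 11 was nearly equal, at 88.6 CPM in Sham_Veh4 and 91.6 CPM in Sham_SHU3. That sum was also 40.4 to 77.5 CPM in Sham_Veh3, Sham_SHU1, Sham_SHU2, VX_Veh4 and VX_SHU3, where Foxj1 was at most 0.661 CPM. The near-equal sums thus do not measure ciliated cells alone. The epithelial marker Epcam stood at a ratio of 1.90, and the 9 simple epithelium markers summed to 74.7 and 176.5 CPM. These ratios compare 2 libraries, not the infusions.

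**Figure D3:**
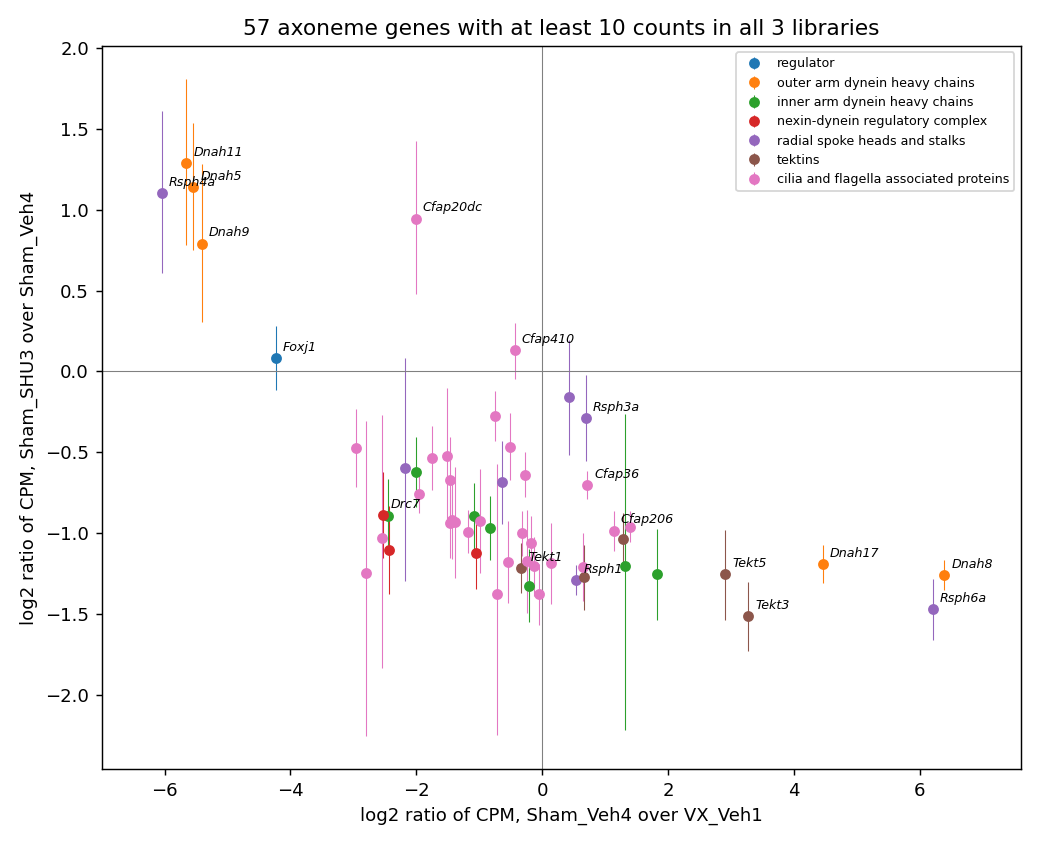
For each of the 57 members with at least 10 counts in all 3 libraries, the log2 ratio of Sham_Veh4 to VX_Veh1 (x axis) against the log2 ratio of Sham_SHU3 to Sham_Veh4 (y axis, with bars of the 95% binomial interval). Dnah5, Dnah9, Dnah11 and Rsph4a lie at the upper left, with y ratios of 1.73 to 2.44, and Dnah8 and Rsph6a at the lower right, with y ratios of 0.418 and 0.361.

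The first comparison of groups was SHU9119 against vehicle in sham mice. Of the 59 members that passed the low-count filter (all but Cfap47), 0 passed an adjusted p of 0.05 by edgeR's quasi-likelihood test, where 0.114% of all 16682 genes tested did. The median fitted log2 difference was −1.69 over the members and −0.06 over all genes, and 56 of 59 members were negative (56.8% of all genes). The members share libraries, so their signs are not independent. At an unadjusted p under 0.05, 3 members were lower (Cfap74, Cfap97d2 and Rsph9) and 0 higher, where 8.67% of all genes were lower and 11% higher. DESeq2's Wald test called 0 members and limma-voom with sample weights 5, where they called 7.06% and 23.2% of all genes. Without Sham_SHU3, 42 members were lower at an unadjusted p under 0.05 and 1 was called, where 14.8% of all genes were lower and 5.83% called, and the median was −3.53. Without Sham_Veh4 the median was −1.09.

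The second comparison was SHU9119 against vehicle after sDVX. By edgeR 0 of 59 members were called, where 0.00599% of all genes were. The median was −2.44 over the members and −0.02 over all genes, and 57 of 59 members were negative (53.15% of all genes). At an unadjusted p under 0.05, 11 members were lower, against 6.16% of all genes. DESeq2 and limma-voom each called 0 members, where they called 0.282% and 0.120% of all genes. The count at an unadjusted p under 0.05 was 0 without VX_Veh1 (0.644% of all genes), with a median of −1.40, and 40 without VX_SHU2 (8.18% of all genes), with a median of −3.54. The groups of 4 libraries did not overlap for 1 member, Cfap97, lower under SHU9119 (2.03% of all genes), and for 0 members in sham mice (4.82%). The Cfap97 gap was narrow, with at most 23.3 CPM in VX_SHU and at least 23.6 CPM in VX_Veh.

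Averaged over both surgeries, 0 of 59 members were called by edgeR, where 1.87% of all genes were. The median log2 difference was −2.06 over the members and −0.03 over all genes. At an unadjusted p under 0.05, 37 of 59 members were lower and 0 higher, where 15.7% of all genes were lower and 12.8% higher. By role, these were 3 of 5 outer arm chains (median −3.07), 5 of 7 inner arm chains (−2.12), 3 of 3 regulatory complex genes (−2.76), 3 of 7 spoke genes (−1.35), 1 of 5 tektins (−1.69), 21 of 31 Cfap genes (−2.03) and Foxj1. The ciliary Dnah5, Dnah9, Dnah11 and Rsph4a stood at −3.32, −3.15, −3.07 and −3.45 (edgeR adjusted p of 0.136, 0.104, 0.114 and 0.124). The flagellar Dnah8, Dnah17 and Rsph6a stood at −0.83, −0.67 and −0.98 (edgeR adjusted p of 0.624, 0.584 and 0.621). The difference between the paralogs was not tested. The smallest adjusted p among the members was 0.0669, for Cfap300, a dynein assembly factor, at −1.33 ± 0.370 (SE) by edgeR, a gene named after its values were seen. The evenly expressed Cfap410, Rsph3a and Rsph3b stood at −0.07, 0.20 and 0.10 (edgeR adjusted p of 0.545, 0.271 and 0.682).

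The call for this average depended on the test and on single libraries. DESeq2 called 28 members, all lower, where it called 16.7% of all genes, and limma-voom called 16, where it called 23.4%. Without Sham_Veh4 and Sham_SHU3, edgeR called 3 members (10.2% of all genes). With the 6 libraries richest in epididymis or testis marker RNA left out, a choice made after the data were seen, it called 43 (24.4% of all genes). The vehicle libraries left out (Sham_Veh3, Sham_Veh4 and VX_Veh4) were those lowest in Foxj1, at 0.661, 15.1 and 0.269 CPM. The Sham_SHU libraries left out (Sham_SHU3 and Sham_SHU4) were the highest of their group in Foxj1, at 16.0 and 7.51 CPM. The count of 43 cannot be told apart from this choice of libraries. Without Sham_SHU3 alone edgeR called 12 (9.58% of all genes), and without VX_Veh1 alone 14 members were lower at an unadjusted p under 0.05 (8.81% of all genes). Beside these members, 8 of 10 ciliated epithelium markers, a list that includes the member Foxj1, were lower at an unadjusted p under 0.05 (median −2.98, where 15.7% of all genes were lower), as was 1 of 9 simple epithelium markers (median −1.50), 2 of 6 mesothelium markers (median −0.34), 0 of 14 testis markers (median −0.39) and 0 of 6 epididymis markers (median 0.39). Among 6 adipocyte markers 1 was higher (median 0.31). The part of each tissue's RNA in the members' difference was not tested.

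**Figure D4:**
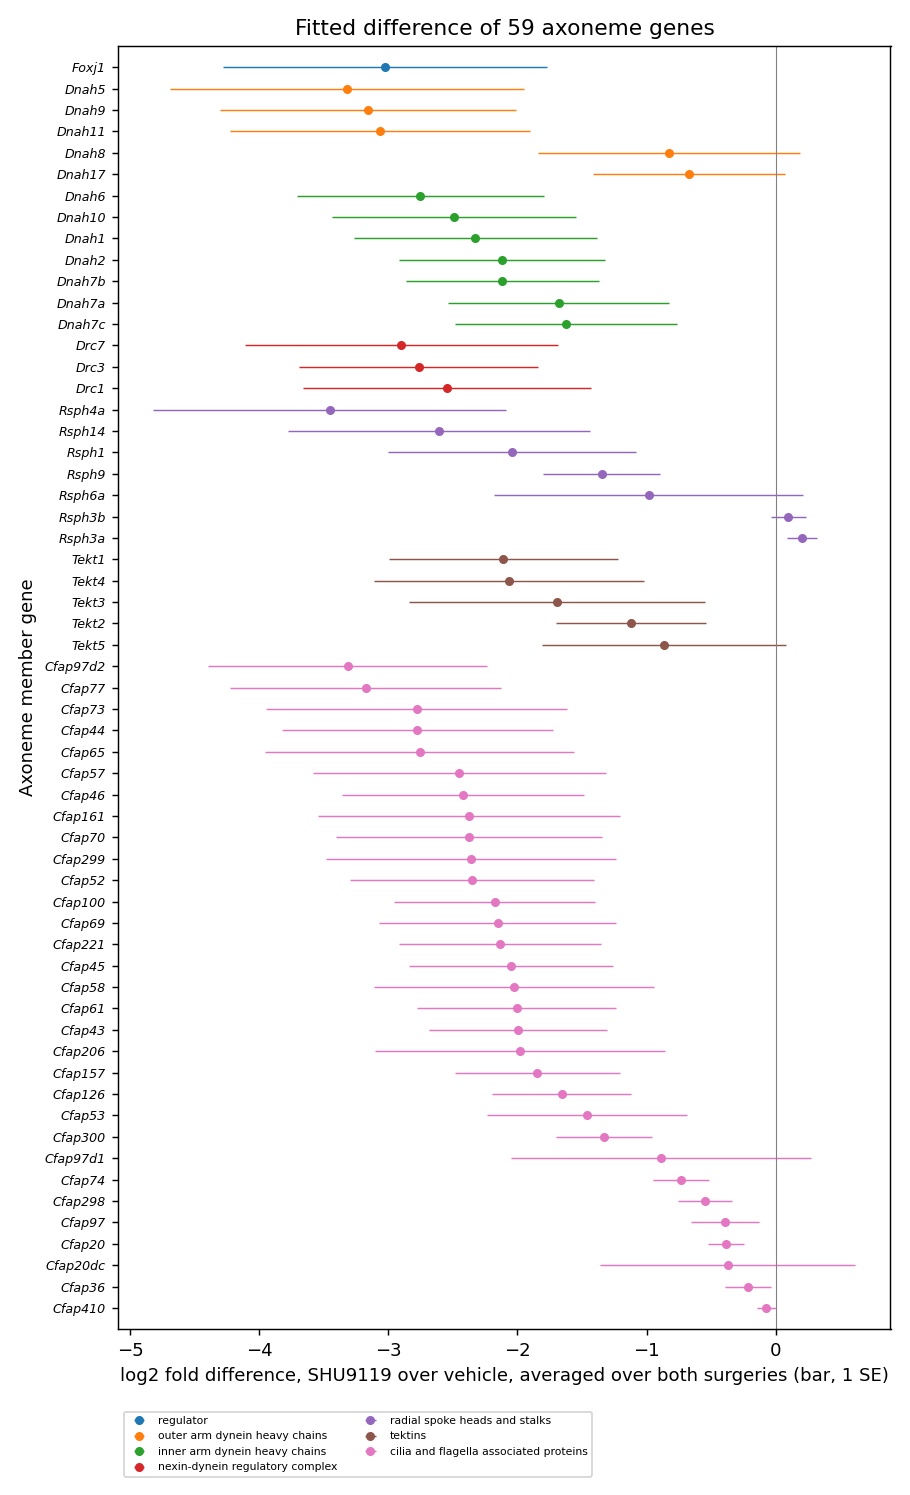
Fitted log2 difference of SHU9119 from vehicle, averaged over both surgeries, with bars of 1 SE, for the 59 tested members by role. Rsph4a stands at −3.45 and Dnah5 at −3.32 with wide bars, Dnah8 at −0.83, and Rsph3a, Rsph3b and Cfap410 within 0.20 of 0.

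The direction of the members in the vagotomy comparisons turned on single libraries. For sDVX against sham under vehicle, 0 of 59 members were called by edgeR (0% of all genes). The median was 0.14 against 0.01 over all genes, and 25 of 59 members were negative (48.5% of all genes). Without VX_Veh1, 56 were negative (median −0.61), and without Sham_Veh4 6 were (median 0.58). The 3 members lower at an unadjusted p under 0.05 (6.36% of all genes) were Dnah8 (−4.27), Rsph6a (−4.56) and Dnah17 (−2.77), each with an edgeR adjusted p of 0.608 and each highest in Sham_Veh4. Under SHU9119, edgeR called 0 of 59 members (0% of all genes), the median was −0.26 against −0.01, and 37 of 59 were negative (50.91% of all genes). Without VX_SHU2, 55 were negative (median −1.47), and without Sham_SHU3 9 were (median 0.83). In the fit with all libraries 1 member, Dnah8, was lower at an unadjusted p under 0.05 (5.54% of all genes). The groups did not overlap for Cfap97 and Dnah7c, both lower after sDVX under SHU9119 (2.44% of all genes), and for 0 members lower under vehicle (2.16%). Both gaps were narrow. Cfap97 was at most 23.32 CPM in VX_SHU and at least 23.35 CPM in Sham_SHU. Dnah7c was at most 0.0886 CPM (VX_SHU1) and at least 0.0949 CPM (Sham_SHU1). These levels lie under the 0.133 and 0.142 CPM that 3 counts give there. For the interaction of surgery and infusion, edgeR called 0 of 59 members (0% of all genes), 0 were lower at an unadjusted p under 0.05 (1.43% of all genes), and the median was −0.41 against −0.01. DESeq2 and limma-voom called 0 members in these 3 comparisons. Under vehicle DESeq2 called 8 of all genes and limma-voom 4, and under SHU9119 they called 93 (0.557%) and 779 (4.67%).

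Other motile cilium genes, which do not carry the symbols above, were also lower in the average in most cases, and their smallest edgeR adjusted p was 0.0601. At an unadjusted p under 0.05, where 15.7% of all genes were lower and 12.8% higher, 1 of 2 dynein intermediate chains (Dnaic1 and Dnaic2, median −2.25), 6 of 10 dynein assembly factors (median −1.76), 14 of 16 docking, ruler and inner arm partner genes (median −1.87), 11 of 19 central pair and spoke partner genes (median −2.03) and 5 of 10 genes that control multiciliation (median −0.95) were lower, and 0 were higher. Ropn1l, a spoke protein also of sperm, stood at 113.7 CPM in Sham_Veh4, 56.6 CPM in Sham_SHU3 and 6.08 to 14.3 CPM elsewhere. Dynlrb2, a dynein light chain of ciliated tissue, was highest in VX_Veh1 at 58.7 CPM. Tfdp1 and E2f4, cell cycle factors that also act in multiciliation, ran evenly from 48.1 to 59.9 and from 25.9 to 36.6 CPM. Of 30 genes of intraflagellar transport and the primary cilium, which most cells express, 21 were lower at an unadjusted p under 0.05 (median −0.45, against 15.7% of all genes and a median of −0.03), and 1 passed edgeR's threshold: Bbs2, of the complex that carries cargo into cilia, fell (adjusted p = 0.0443, named after its value was seen). Bbs2 means were 24.9 ± 3.18, 14.7 ± 2.22, 29.4 ± 11.8 and 18.4 ± 3.24 CPM (SD, n = 4) in Sham_Veh, Sham_SHU, VX_Veh and VX_SHU, and its highest library was VX_Veh1, at 47.0 CPM.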

How the data were processed

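Counts per gene, by NCBI gene number, were deposited by the authors. The submitters' processing notes name bcl2fastq, TopHat, edgeR and the mm10 build, without versions. How reads were assigned to genes, with which annotation and strand option, is not given in the sources used here. Of 24454 gene numbers, 24374 matched a RefSeq gene table of that build, and exon lengths came from GENCODE M21. The members and gene lists were chosen with earlier results of these data known.

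In R 4.3.3 with edgeR 4.0.16, filterByExpr by group kept 16682 of 21661 genes with any count. TMM factors were 0.849 to 1.13. All 16 libraries entered a robust quasi-likelihood fit of 4 group means (residual degrees of freedom, 12), with Benjamini-Hochberg adjustment over all genes and a threshold of 0.05. The common biological coefficient of variation was 50%. A check of the fit on simulated counts used a smaller spread, without libraries that differ in RNA of other tissues. That check thus gives no power or rate of false calls for these data. The SE of a fitted log2 difference is an approximation: the difference without its sign, divided by the square root of the test's F statistic. CPM used the TMM-scaled totals. Ratios between libraries carry exact binomial (Clopper-Pearson) 95% intervals.

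Named by rule were Foxj1, the 2 members with the highest mean level per kb in each role, 10 cilium and sperm paralogs, members past the threshold, the 5 members with the highest ratio of Sham_Veh4 and Sham_SHU3 to the other 14 libraries, and the 3 most even members. Other genes were named after their values were seen. Replicate numbers did not pair the libraries. Alternatives were DESeq2 size factors, no filter, the DESeq2 1.42.0 Wald test, limma-voom (limma 3.58.1) with sample quality weights, a replicate block, and fits without Sham_Veh4 and Sham_SHU3 or without each library in turn.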

Additional observations from a re-analysis of the deposited data

Results flagged for a closer look

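Of 96 sets of 4 libraries checked (24 named members in 4 groups), 26 held a library whose gap to its nearest neighbour, divided by the range of the group, exceeded Dixon's 95% critical value, where chance gives about 5% of sets. The members share libraries, so these are not independent. The 5% holds for normally distributed values, and untransformed CPM was used here. Cfap97d1 and Tekt3 were named only for a high ratio of Sham_Veh4 and Sham_SHU3 to the other 14 libraries. Dnah8, Dnah17 and Rsph6a also met that naming rule. Flags of these members in Sham_Veh4 and Sham_SHU3 follow from the rule and are no separate result. In VX_SHU, library 2 stood above the others for 10 members: the gap was 0.919 of the range for Foxj1, 0.913 for Dnah5, 0.942 for Dnah6, 0.893 for Dnah10, 0.87 for Dnah9, 0.913 for Drc7, 0.873 for Drc1, 0.874 for Rsph4a, 0.959 for Tekt1 and 0.849 for Cfap298. In Sham_SHU, library 3 stood above the others for 9 members: 0.977 for Dnah8, 0.964 for Dnah17, 0.913 for Dnah10, 0.904 for Drc1, 0.971 for Rsph1, 0.919 for Rsph6a, 0.857 for Tekt2, 0.932 for Tekt3 and 0.884 for Tekt4. In Sham_Veh, library 4 stood above the others for 7 members: 0.956 for Dnah8, 0.962 for Dnah17, 0.954 for Rsph6a, 0.849 for Tekt2, 0.936 for Tekt3, 0.946 for Tekt5 and 0.973 for Cfap97d1. The VX_SHU2 set held the ciliary Dnah5, Dnah9 and Rsph4a but not Dnah11. Dnah10 and Drc1 were flagged in both VX_SHU2 and Sham_SHU3, so the flags did not divide the members by organelle. VX_Veh held no such library for a named member, and 3 libraries of that group were high for Foxj1.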

How the results depend on the processing

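Under every alternative the median log2 difference of the members for SHU9119 against vehicle was below 0, in sham mice (−3.53 to −1.09), after sDVX (−3.54 to −1.40) and in the average (−3.05 to −1.58). The number called in the average was 0 by edgeR, 28 by DESeq2, 16 by limma-voom, 3 without Sham_Veh4 and Sham_SHU3, 43 without the 6 libraries with most epididymis or testis marker RNA (chosen after the data were seen), and 0 to 12 with 1 library left out (12 without Sham_SHU3, 1 without VX_Veh4). In sham mice it was 5 by limma-voom and 0 to 1 with 1 library left out (1 without Sham_SHU3). In the other 4 comparisons it was 0 under every alternative. For Foxj1 in the average, DESeq2 gave −3.02 (adjusted p = 0.0447) and the fit without those 6 libraries −5.23 (adjusted p = 0.0327), and the adjusted p ran from 0.0327 to 0.281 over the alternatives, those with 1 library left out included. Those 6 libraries include the vehicle libraries lowest in Foxj1 itself, so that fit is no separate result for Foxj1. With 1 library left out Foxj1 ran from −4.43 to −2.48 in the average, from −4.31 to −2.64 in sham mice and from −5.64 (without VX_SHU2) to −1.77 (without VX_Veh1) after sDVX. Over the other alternatives it ran from −7.64 (without the 6 libraries) to −1.57 (with the replicate block) in sham mice, and from −3.41 to −2.66 after sDVX. The Foxj1 difference for sDVX under vehicle turned to −0.42 by limma-voom and ran from −0.06014 (without VX_Veh1) to 1.49 with 1 library left out. Under SHU9119 it ran from −1.46 (without VX_SHU2) to 2.47, and the interaction from −2.42 to 1.52, negative without Sham_Veh1, Sham_Veh2, VX_Veh4 or VX_SHU2. The cause was not tested.

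Replicate numbers did not pair the libraries: over 24 pairs with the same number, correlations of deviations ran from −0.689 to 0.676, and 5 of 16 libraries correlated best with their own number. With the replicate block, 0 members were called in all 6 comparisons, and the members lower at an unadjusted p under 0.05 in the average were 16. The share of all genes at that cut with the block is not given here, so this count does not set the members apart. Under the block Foxj1 stood at −1.57 for SHU9119 in sham mice, at −2.49 in the average, at −0.73 for sDVX under SHU9119 and at −1.84 for the interaction. Depth limits the lowest values: a count of 0 allows 0.0932 to 0.151 CPM, depending on the library.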

Other observations

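Members with a level in the libraries rich in epididymis markers were described after their values were seen. Crisp1, a secretory protein of the epididymis, stood at 7699 CPM in VX_Veh4 and 8231 CPM in VX_SHU4. Cfap20dc was highest in the same libraries, at 13.7 CPM in VX_Veh4 and 11.1 CPM in VX_SHU4, followed by VX_Veh1 at 8.53 CPM and Sham_SHU4 at 5.35 CPM. Cfap53, which also acts in left-right patterning by nodal cilia, stood at 6.00 CPM in VX_Veh4 and 6.41 CPM in VX_SHU4, beside 15.9 CPM in Sham_Veh4 and 14.5 CPM in VX_Veh1. Foxj1 stood at 0.269 and 1.87 CPM in VX_Veh4 and VX_SHU4, and Dnah5 at 0.154 and 0.573 CPM. Gmnc, which starts multiciliation upstream of Foxj1, stood at 30.6 CPM in VX_Veh1, 1.29 CPM in Sham_SHU3 and 0.287 CPM in Sham_Veh4 (8 counts). Its ratio of Sham_SHU3 to Sham_Veh4 was 4.48 (exact 95% binomial interval 2.04 to 11.2), beside 1.06 for Foxj1. These are values of single libraries, with no replicate of their own.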
